A study of Mus musculus with 4 samples.

Results

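The sites described here were CpG dinucleotides that read as unmethylated in WT serum and as methylated in KO serum, the serum cultures of WT and Chr4-cl KO ES cells. A site was a member when its position was listed once in each table, when it had at least 20 reads in both serum libraries, and when at most 10% of its reads were methylated in WT serum and at least 30% in KO serum. Of 445100 CpG sites with this coverage in both serum libraries, 265482 were at most 10% methylated in WT serum and are called eligible here, and 1277 of these were members (0.481% of eligible sites). The members were thus chosen by the methylation values of the 2 serum libraries, so their difference in serum is given as a description with no test. The 2i + Vitamin C libraries are the measurement that the choice did not use. The members were on all 19 autosomes and on chromosome X, with none of the 9 eligible sites of mitochondrial DNA and none of the 13 on chromosome Y.

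The study profiled DNA methylation by reduced representation bisulfite sequencing (RRBS-seq) in mouse ES cells that carry or lack Chr4-cl, a cluster of KRAB zinc finger protein genes on chromosome 4. The 4 samples were WT and Chr4-cl KO cells, kept in serum medium (20% FCS, with LIF) or switched to 2i + Vitamin C for 1 week. The study's methods trace the KO line to B6;129 mice with a Cre-ERT allele at Gt(ROSA)26Sor, and the deletion was made with CRISPR/Cas9. Each condition had 1 library and thus no replicate. Every test and every interval of a methylation level below covers the counting of reads only, without molecular identifiers. Summed over CpG sites, the libraries held 42684672 (KO 2i + Vitamin C) to 90649194 reads (WT 2i + Vitamin C). Reads over the deleted interval on chromosome 4 numbered 83397 and 102463 in the WT libraries and 811 and 1106 in the KO libraries, and no member lay there. The WT serum and KO 2i + Vitamin C tables each consisted of 2 tables joined end to end, while the other 2 were single tables. In each medium this difference in format ran along with genotype, so within a medium format and genotype cannot be told apart. Across the media format did not follow genotype, since each genotype had a joined table in one medium and a single table in the other. Every one of the 1277 members came from the first table in WT serum.

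In mammals, DNA methylation is carried mostly by cytosines of CpG dinucleotides, and most of the genome's CpGs are methylated while CpG islands at promoters usually are not. DNMT3A and DNMT3B place new methylation, DNMT1 copies it at replication, and TET enzymes oxidise it. ES cells in serum hold high methylation, and the inhibitors of 2i together with vitamin C, which aids TET activity, lower it across the genome. KRAB zinc finger proteins bind transposable elements and recruit KAP1, which leads to H3K9me3 and helps to keep methylation in place. In RRBS-seq, MspI cuts the sequence CCGG after its first C whether or not the CpG within is methylated, reads start at the cut, and bisulfite turns unmethylated C into T, so the share of reads with C at a CpG gives its methylation level.

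A pair of sequence sets carries most of what follows. The first is the stretch upstream of Pgk1, which encodes the glycolytic enzyme phosphoglycerate kinase 1 and whose promoter is widely used to drive transgenes. It held 5 members and is shown because its KO reads were highly methylated in both media. It is chrX:103382060-103382209 (mm9, plus strand, promoter, upstream of the first exon), with the member CpGs in capitals.
Pgk1: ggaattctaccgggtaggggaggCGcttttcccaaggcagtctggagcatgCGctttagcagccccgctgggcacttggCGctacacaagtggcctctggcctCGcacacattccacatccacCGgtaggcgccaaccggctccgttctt

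The second set is shown because its members share a position. Of the 1277 members, 298 lay 7 bases and 122 lay 19 bases from the start of the nearest CCGG, counted on the strand that is read from the cut. These are bases 7 and 19 of a read that begins at the cut. The 2 members of each distance below were taken from the 4 with the highest WT 2i + Vitamin C level among members with at least 10 reads in both 2i libraries. The CCGG and the member CpG are in capitals, the strand is minus in each, and the sequence is that of mm9.
Kit (chr5:75970825-75970854): CCGGgggCGctgtgccctctaagaccagga
Setd2 (chr9:110435041-110435070): CCGGcgtCGctggctggctggctggcccgc
Arid4b (chr13:14157028-14157057): CCGGcaccaccaccaccccCGccccaggcc
Trpm3 (chr19:22213678-22213707): CCGGctggcgctgcggctgCGcctgcggct

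In KO serum the median member was 36.4% methylated, the quartiles were 32.3% and 43.7%, and 544 of the 1277 were at 30 to under 35%. The level was at least 50% at 180 members and at least 80% at 13. In WT serum the median was 5.11%, with 395 members above 8% and 177 at 0. At the lower edge of the KO rule, 32 members stood at exactly 30%, and the 4 nearest sites outside it were at 29.93 to 29.96%. At the WT edge, 55 members stood at exactly 10%, and the 4 nearest sites outside were at 10.06 to 10.11%. The median read number of a member was 54 in WT serum and 57 in KO serum.

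In 2i + Vitamin C the members were the other way round, higher in WT than in KO cells. At least 10 reads in both 2i libraries were present at 878 members. Of the other 399, all had fewer than 10 reads in KO cells, and 141 had none. Over the 878 sites the mean level was 15.3% in WT and 2.80% in KO cells, with medians of 6.90% and 1.02%. Over the 211587 eligible sites with the same coverage the means were 2.14% and 1.18%. WT was higher at 641 members, KO at 212, and 25 were equal. The median difference, KO minus WT, was -4.495 percentage points, beside -0.7394 over all 458443 sites tested. At 466 of the 878 (53.1%) both libraries were at or below 10%. In WT 2i + Vitamin C, 296 members (33.7%) were at least 20% methylated, beside 601 (0.284%) of the 211587 eligible sites. Of the 296, 290 were at or below 10% in KO cells.

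Each site with at least 10 reads in both 2i libraries was tested with a two-sided Fisher's exact test of its methylated against its unmethylated reads, with Benjamini-Hochberg adjustment over all 458443 sites. A site was called at an adjusted p under 0.05 and a difference of at least 20 percentage points, which compares these 2 libraries and not the genotypes. Of the 878 members, 215 (24.5%) were called lower in KO cells, where 0.361% of all tested sites were. Only 5 were called higher, where 0.0897% of all tested sites were, and 4 of these 5 were the CpGs upstream of Pgk1. The fifth, chr11:3864183, was the CpG of a CCGG 131 bp from a transcription start of Pes1, which acts in ribosome assembly. Its level was 3.23% of 93 reads in WT serum, 37.3% of 102 in KO serum, 3.85% of 78 in WT 2i + Vitamin C and 25.5% of 102 in KO 2i + Vitamin C (adjusted p = 0.010, Fisher's exact test).

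**Figure D1:**
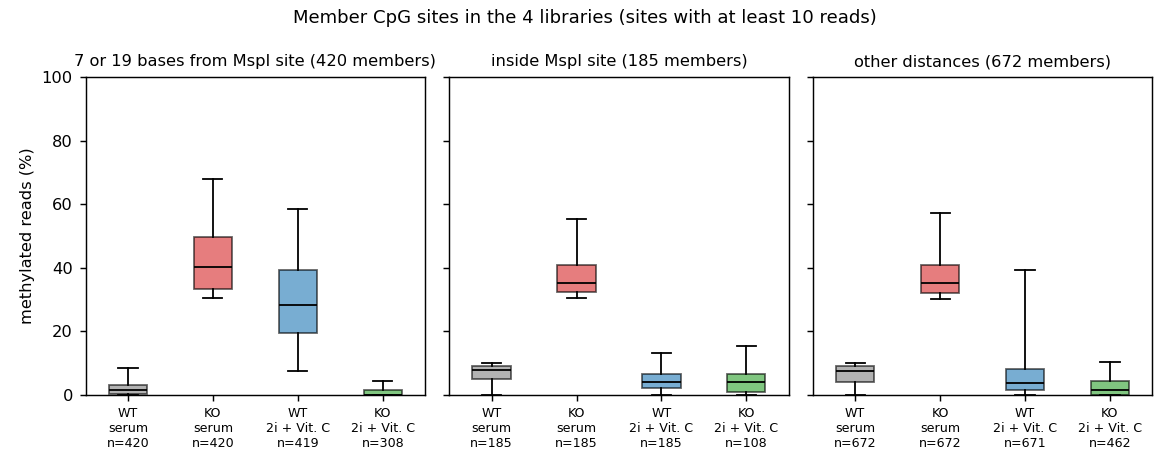
Methylation of the members, in percent of reads, in the 4 libraries, for the members 7 or 19 bases from an MspI site, inside one, and at other distances. Boxes span the quartiles with the median as a line, whiskers reach the percentiles 5 and 95, and only sites with at least 10 reads are drawn. The WT 2i + Vitamin C box is high (median 28.2%) only in the first panel.

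Sites 7 or 19 bases from CCGG were 32.9% of members but 4.14% of eligible sites. Among the eligible sites of this kind 3.82% were members, beside 0.337% of all other eligible sites. The 420 members at these positions had a median of 1.42% in WT serum and 40.1% in KO serum, which the rule fixed. In 2i + Vitamin C, which it did not use, their median was 28.2% at 419 sites in WT and 0 at 308 sites in KO cells. Of the 308 sites with reads in both, 305 were higher in WT. The call of lower in KO cells was made at 172 of them (55.8%) and the call of higher at 0, where 1.99% and 0.0419% of all tested sites at these 2 positions had those calls. No p is given for the members as a group.

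The same positions showed among all eligible sites, and in the same 2 libraries, KO serum and WT 2i + Vitamin C. These are the libraries whose tables were single, and a part of the table format in this was not tested. The eligible sites were averaged at each of 43 distances from 4 to 46 bases. In KO serum the mean was 10.9% at distance 7 and 5.47% at 19, against 1.91 to 4.15% at the 41 other distances. In WT 2i + Vitamin C it was 7.78% and 3.52%, against 0.866 to 3.31%. In WT serum it was 1.53% and 1.46%, within the 1.38 to 1.71% of the other distances. Eligible sites were at most 10% methylated in WT serum by the rule, which limits any peak in that library. In KO 2i + Vitamin C, which the rule did not use, the mean was 1.07% and 0.9997%, within 0.912 to 1.53%. Along the 43 distances the means of KO serum and WT 2i + Vitamin C went up and down together, with Pearson's r of 0.972 and Spearman's rho of 0.961, and 0.964 and 0.955 without distances 7 and 19. The same r between KO serum and WT serum was -0.037, but the rule had capped the WT serum values. Between KO serum and KO 2i + Vitamin C, which the rule did not use, it was -0.03703. These points are averages over sites within a library and share that library's reads, so no p is given.

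**Figure D2:**
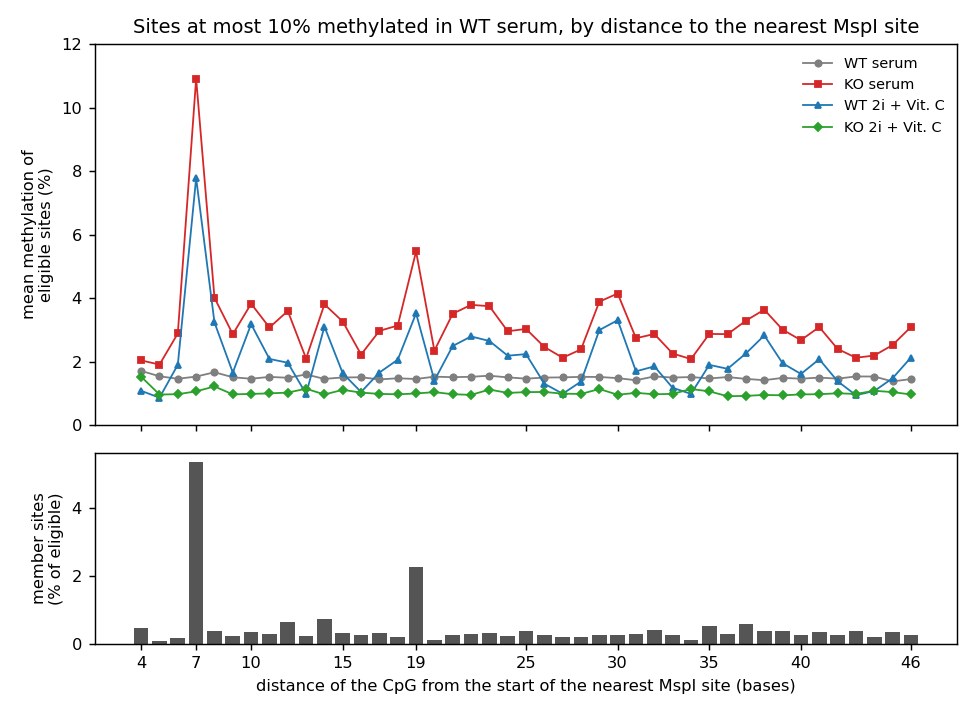
Mean methylation (%) of the eligible sites in the 4 libraries (upper panel) and the share of eligible sites that were members (%, lower panel), by the distance in bases from the start of the nearest MspI site to the CpG. KO serum and WT 2i + Vitamin C peak at 7 and 19 bases, where 5.33% and 2.26% of eligible sites were members. KO 2i + Vitamin C, which the rule for eligible sites did not use, is flat. WT serum is flat too, but that rule capped its values, so its lack of a peak cannot be read as a result.

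Both strands held such members. At distance 7 there were 141 members among 2786 eligible sites with the CCGG before the CpG on the plus strand (5.06%), and 157 among 2806 on the minus strand (5.595%). At distance 19 there were 61 on each strand. The sequence around these members was richer in C on the strand read from the cut. Over the 3 bases before and the 10 after the CpG, members at distance 7 held 42.6% C and 26.5% G, and the eligible sites at that distance that were not members held 33.2% C and 35.8% G. At distance 19 the values were 40.1% and 26.9% for members and 33.7% and 34.9% for the rest. The nearest CpG within 50 bp seldom shared the gain. Of 395 such members with a covered neighbour, 16 had one that was itself a member (4.05%), beside 0.481% of all eligible sites. The neighbours' median level in KO serum was 3.39%. Whether the base of the read or the making of the libraries and tables had a part in these values was not tested.

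Single sites of this kind reached high levels. Kit, a receptor tyrosine kinase of germ cells and blood, had 1.44% of 347 reads methylated in WT serum, 77.1% of 258 in KO serum, 72.6% of 332 in WT 2i + Vitamin C and 0.535% of 187 in KO 2i + Vitamin C (adjusted p = 1.3e-64, Fisher's exact test). Setd2, the methyltransferase that makes H3K36me3, had 1.03% of 488, 66.4% of 381, 69.8% of 149 and 0.922% of 217 in the same order (adjusted p = 9.4e-48, Fisher's exact test). Traf3 had 2.40% of 125, 75.6% of 172, 69.5% of 118 and 0% of 40 (adjusted p = 2.4e-13, Fisher's exact test). At all 3 genes, KO serum and WT 2i + Vitamin C were high and the other 2 libraries near 0. Trpm3, a calcium-permeable channel, had 0% of 204, 70.2% of 161, 62.1% of 272 and 0% of 102 at distance 19 (adjusted p = 5.4e-30, Fisher's exact test). Arid4b, a subunit of a SIN3 corepressor complex, had 0% of 203, 62.6% of 147, 65.5% of 113 and 0% of 116 (adjusted p = 1.2e-27, Fisher's exact test).

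Of the 8 sites with the largest called differences in 2i + Vitamin C, at most 1 per region, 5 lay at other distances. The site upstream of Pgk1 was higher in KO cells and is described below, and the other 4 were lower in KO cells. The largest was an intergenic CpG at chr11:7518164, 327787 bp from the nearest transcription start and 21 bases from CCGG, with 9.52% of 63 reads in WT serum, 100% of 171 in KO serum, 99.6% of 446 in WT 2i + Vitamin C and 0% of 54 in KO 2i + Vitamin C (adjusted p = 8.2e-66, Fisher's exact test). A site in the promoter of the transcript 4833420G17Rik had 0% of 50, 90.3% of 31, 85.7% of 14 and 0.971% of 103 (adjusted p = 1.9e-10, Fisher's exact test). An intergenic site nearest to 9230113P08Rik had 0% of 36, 77.6% of 67, 81.1% of 169 and 3.85% of 26 (adjusted p = 1.4e-11, Fisher's exact test). Med6, a subunit of Mediator, had 0% of 22, 95.5% of 22, 75.9% of 29 and 0% of 23 at a site 76 bp from its start (adjusted p = 4.5e-06, Fisher's exact test). In these 4 sites KO serum and WT 2i + Vitamin C were high together.

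**Figure D3:**
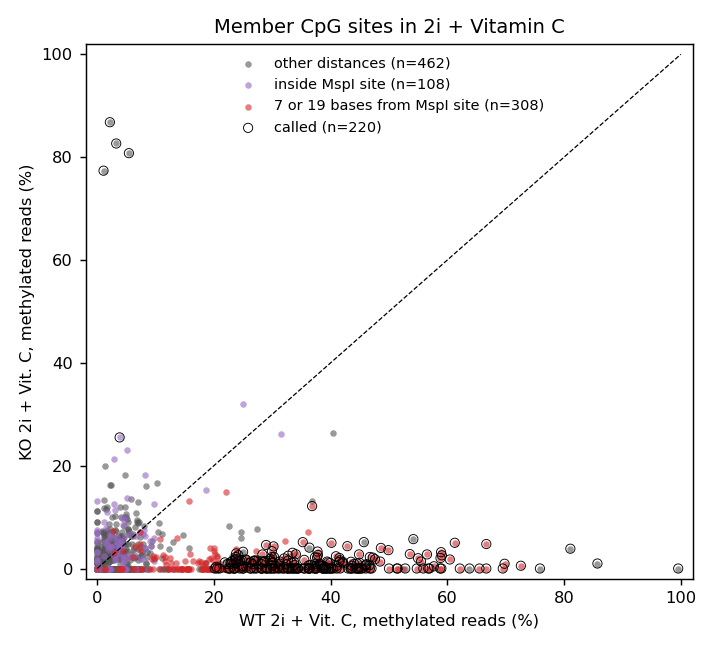
Methylation in 2i + Vitamin C of the 878 members with at least 10 reads in both libraries, WT on the x axis and KO on the y axis, in percent of reads. Each point is a CpG, coloured by its place relative to the MspI site, circles mark the 220 called sites, and the dashed line marks equal levels. The called sites lie along the bottom except for 4 CpGs of Pgk1 at the upper left and the Pes1 site at 25.5% in KO cells.

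The 857 members at all other positions were higher in KO serum and mostly low in both 2i libraries. Their median was 7.45% in WT serum and 35.3% in KO serum. In 2i + Vitamin C, 570 of them had enough reads in both libraries, and their mean level was 7.62% in WT but 3.73% in KO cells. At 441 of the 570 (77.4%) both libraries were at or below 10%. Lower in KO cells was called at 43 (7.54%) and higher at 5, where 0.299% and 0.0915% of all tested sites at these positions had those calls. WT was higher at 336 and KO at 210. The 185 members inside a CCGG, which are 14.5% of members and beside 14.2% of eligible sites, had mean levels of 5.16% in WT and 5.08% in KO cells at 108 sites, with 1 call in each direction.

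Read number moved with membership at these positions. Members made up 0.755% of the eligible sites whose smaller serum read number was 20 to 39, 0.329% at 40 to 99 and 0.0952% at 100 or more. At distances 7 and 19 the shares were 3.02%, 3.79% and 4.29%. Of the 857 members, 483 had 20 to 39 reads in the shallower serum library and 103 had 100 or more. Among the 103, the median was 6.15% in WT serum, 33.5% in KO serum and 6.31% in WT 2i + Vitamin C, and 1.21% at the 75 with at least 10 reads in KO 2i + Vitamin C. The WT 2i + Vitamin C levels were spread widely, with a mean of 15.8% and an upper quartile of 28.9%. There, 40 of the 103 (38.8%) were at 20% or more, beside 110 of 856 (12.85%) members at these positions at any serum read number. The part of counting error in the shallow members was not tested. Of 603 members outside CCGG with a covered neighbour within 50 bp, 88 had one that was itself a member (14.6%, all eligible sites 0.481%). The neighbours' median in KO serum was 30%. For 127 members inside CCGG the neighbours' median was 35%. In WT serum the neighbours' medians were already 9.68% and 13.3% in that order. Of the neighbours, 293 of the 603 and 79 of the 127 were above 10% in WT serum, so these could not be members.

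The members upstream of Pgk1 were highly methylated in KO cells in both media where they had reads. In KO serum they were 5 of the 13 members at 80% or more. The 5 members, at -356 to -256 bp from the annotated start, had 0 to 6.98% methylation in WT serum on 42 to 44 reads, and 83.0 to 84.8% in KO serum on 729 to 775 reads. In WT 2i + Vitamin C they were at 1.09 to 5.44% on 77 to 92 reads. In KO 2i + Vitamin C the 4 with reads were at 77.4 to 86.8% on 98 to 106 reads, and the fifth had none. All KO values were above all WT values. The 4 differences in 2i + Vitamin C were 75.3 to 84.6 percentage points (adjusted p = 3.0e-25 to 4.5e-34, Fisher's exact test). At the CpG 328 bp before the start, the 95% Wilson interval was 79.0 to 92.0% in KO and 0.598 to 7.58% in WT cells. The reads of neighbouring CpGs here come from the same fragments, so the sites are not independent.

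At the Pgk1 members the number of reads also differed between KO and WT cells. The reads were scaled to 1000000 CpG reads per library. On this scale the 5 members had a median of 8.75 reads in KO serum and 0.613 in WT serum, and the median of the ratios at single sites was 13.98, with a range from 13.8 to 14.3. In 2i + Vitamin C the ratio at the 4 sites was 2.26 to 2.45. The median ratio over all 1277 members in serum was 0.867, and only 5 members had a ratio above 10, which were these 5. A further 7 CpGs within 440 bp before and 60 bp after the start failed the rule on reads or WT level. They were at 81.7 to 93.3% in KO serum on 41 to 104 reads and at 0 to 15% in WT serum on 1 to 29 reads. On the same scale, the CpGs 37 and 217 bp before the start held 1.177 and 1.075 reads in KO serum, and 0.4134 each in WT serum. The CpG 369 bp before the start held 0.5092 in KO serum and 0.01426 in WT serum, the latter from 1 read. Per the study's methods, the ES cells from which KO and WT clones were picked had been nucleofected with pPGK-puro, a plasmid named for this promoter, along with the guide plasmids. Reads from vector sequence cannot be told apart here from those of the endogenous locus, so the levels and read numbers at Pgk1 may be those of either; their source was not tested.

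**Figure D4:**
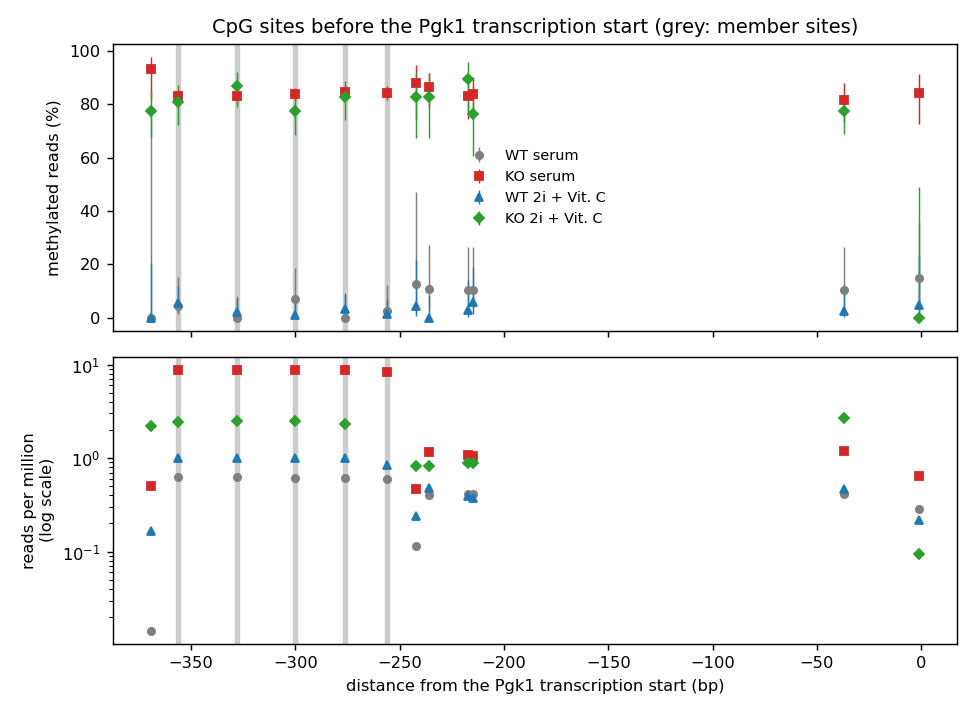
CpG sites upstream of Pgk1 by distance from the transcription start in bp, with methylation in percent and 95% Wilson intervals (upper panel) and reads per 1000000 CpG reads on a log scale (lower panel) in the 4 libraries; grey lines mark the 5 members. The KO libraries lie between 76.3 and 93.3% wherever they have a value, except for KO 2i + Vitamin C at the last site (0% of 4 reads) and no reads of that library at the fifth member, and the WT libraries lie at or below 15%.

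Members rarely clustered. Joined at up to 500 bp they formed 1111 regions, of which 973 held 1 member, 119 held 2, 15 held 3 and 4 held 5 or more. The region with the most members was the promoter of Siah1b, an X-linked gene for an E3 ubiquitin ligase, at chrX:160514064-160514408. Its 6 members, of 10 covered sites, had 1.32% of 988 reads methylated in WT serum and 32.4% of 1012 in KO serum when pooled, and single sites were at 30.7 to 36.4% in KO serum. In 2i + Vitamin C the pooled level was 3.39% of 1004 reads in WT and 2.38% of 42 in KO cells, so both were near the WT serum level. Epha2, an ephrin receptor, had 5 members at chr4:140864724-140865114, where only 6 of 12 covered sites were eligible and the rest were above 10% in WT serum. The 5 members of Epha2 had 8.05% of 1279 reads in WT serum and 40.2% of 1387 in KO serum. Its 2i levels were 6.73% of 1426 and 8.49% of 165. Another region with 5 members was at H2-Q6, an MHC class I gene (chr17:35561930-35562155), with 7.62% of 1024 reads in WT serum, 31.9% of 1032 in KO serum, 1.37% of 1832 in WT 2i + Vitamin C and 3.02% of 829 in KO 2i + Vitamin C. H2-Q6 belongs to a family of near-identical genes, so the placing of its reads is uncertain.

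The 8 regions of 3 members that led the rest by pooled gain fell into both kinds. In 5 promoters the WT 2i + Vitamin C level was high. They were those of Sppl3, an intramembrane protease, Mdm2, the ubiquitin ligase of p53, Traf3, a signalling adaptor, Cnot4, a ubiquitin ligase, and Glra1, a glycine receptor. Pooled levels in KO serum were 55.0, 52.6, 47.7, 39.2 and 41.2% in that order, and in WT 2i + Vitamin C they were 50, 41.0, 48.3, 31.7 and 32.3%. In KO 2i + Vitamin C, Traf3, Cnot4 and Glra1 were at 1.68% of 119, 0.760% of 263 and 1.80% of 222 reads, Sppl3 was at 0% of 24 and Mdm2 had no reads. Each of the 5 held a member at distance 7 or 19. The 3 members of Mdm2 lay within chr10:117147324-117147329 and were read together. In the other 3 regions both 2i libraries were low. An exon of Rbp3, the retinoid-binding protein of the retina, had 49.5% in KO serum, 2.56% in WT 2i + Vitamin C and 2.08% in KO 2i + Vitamin C. An intergenic region nearest to Gm12209 had 41.1, 2.91 and 1.80% in the same libraries, and an intron of 8030462N17Rik had 41.4, 2.98 and 2.41%.

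A few members outside distances 7 and 19 kept some methylation in KO 2i + Vitamin C. Of the 570 with at least 10 reads in both 2i libraries, 11 (1.93%) were at 20% or more. Among the 211587 eligible sites with that coverage, at any distance, 108 (0.0510%) were. The 11 included the 4 CpGs of Pgk1 and the Pes1 site. A CpG in an exon of Trak1, a mitochondrial transport adaptor, was at 40.9% of 44 reads in KO serum, 25% of 56 in WT 2i + Vitamin C and 32.0% of 25 in KO 2i + Vitamin C. Wnt5b, a Wnt ligand, had an intronic CpG at 35.1% of 37, 31.4% of 105 and 26.2% of 42 in the same order. The remaining 4 of the 11, nearest to or within Apof, 1700030C10Rik, Gpr132 and Lrfn2, had 10 to 33 reads in KO 2i + Vitamin C and levels of 20 to 26.3%. These sites were chosen after their values were seen, and neither the Trak1 nor the Wnt5b difference was called.

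Members lay in promoters, exons, introns and intergenic sequence. Within 1000 bp of a transcription start were 653 members (51.1%, 95% Wilson interval 48.4 to 53.9%) and 83.6% of eligible sites. That interval counts each member as independent, though some lay close together. Exons held 13.5% of members and 5.18% of eligible sites, introns 16.5% and 4.14%, and intergenic sequence 18.8% and 7.05%. The members at distances 7 and 19 resembled the eligible sites, with 79.0% in promoters, and the other 857 had 37.5% there. The 857 also lay in sequence with fewer CpGs. In the 200 bp around the site their median GC content was 59.0% and the median ratio of observed to expected CpG was 0.543, against 68.5% and 0.875 for eligible sites and 69.0% and 0.842 for members at distances 7 and 19. For the 185 members inside CCGG the ratio was 0.424. Since the rule used the serum values, these shares are given with no test.

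**Figure D5:**
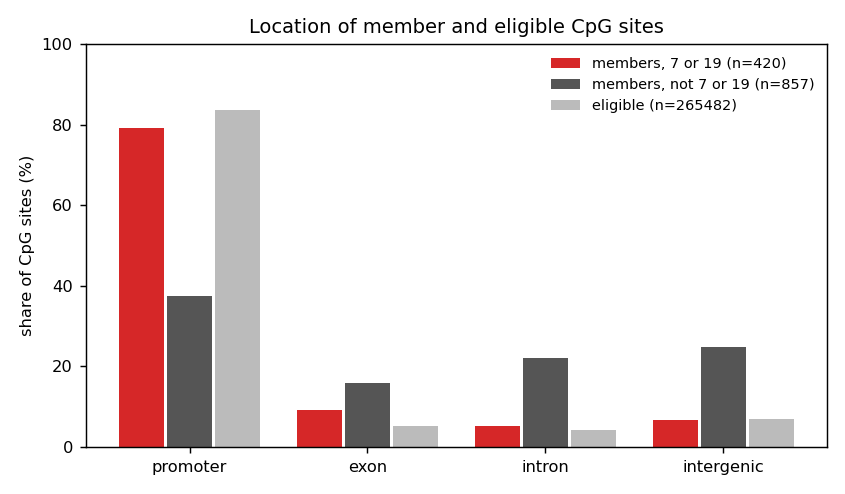
Share of CpG sites (%) in promoters (within 1000 bp of a transcription start), exons, introns and intergenic sequence, for the 420 members 7 or 19 bases from an MspI site, the other 857 members and the 265482 eligible sites. The first group follows the eligible sites (79.0% and 83.6% in promoters) and the second does not (37.5%).

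Among annotated genes, 13505 had an eligible CpG within 1000 bp of a start and 649 of these (4.81%) had a member there, or 295 (2.18%) when distances 7 and 19 were left out. Genes differ in how many eligible sites they hold, so a share of genes is not a share of sites. Counted by gene, 746 of 266255 such sites were members. Of 110 homeobox and paired-box regulators, 8 (7.27%) had a member, and 2 did without those distances. By site, 9 of their 3067 were members. Hoxd13, which patterns the limb, had 0.185% of 541 reads in WT serum, 58.4% of 894 in KO serum, 43.0% of 777 in WT 2i + Vitamin C and 0% of 104 in KO 2i + Vitamin C at distance 7 (adjusted p = 2.7e-20, Fisher's exact test). Irx1 had 59.8% in KO serum and En2 31.5%, both at distance 7. Emx2, a regulator of the forebrain, had 2 members at other distances, with 30.4% and 37.8%. Of 101 other developmental transcription factors, 9 (8.91%) had a member, and 5 without those distances, with 11 of 2662 sites. Ebf3 had 2, at 39.1% and 48.0% of 575 reads in KO serum and 41.1% and 39.9% of 514 in WT 2i + Vitamin C, against 0.513% of 195 and 1.03% of 194 in KO 2i + Vitamin C. Both Olig1 members were at distances 7 and 19, as were those of Foxl1 and Gli2.

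Signalling ligands, receptors and modulators of development had members at 14 of 122 genes (11.5%), and at 10 without distances 7 and 19. By site, 20 of their 3106 were members. Besides Epha2, the hedgehog receptor gene Ptch1 had 2 members. They were at 46.2% and 42.3% of 26 reads in KO serum and 55.3% and 37.7% of 85 in WT 2i + Vitamin C, with 1 read in KO 2i + Vitamin C. Cyp26a1, which degrades retinoic acid, had 1 at distance 19. Of 87 genes for neuronal channels, receptors and synaptic proteins, 10 (11.5%) had a member, and 5 without those distances, with 13 of 1918 sites. Slc6a5, a glycine transporter, had 3, at 32.1 to 38.1% in KO serum and 1.01 to 3.70% in WT 2i + Vitamin C. The potassium channel gene Kcna6 had 2, and the other 8 genes had 1 each. Among these 8 the calcium channel gene Cacna1b reached 69.3% of 339 reads in KO serum and 51.1% of 352 in WT 2i + Vitamin C at distance 7.

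In the lists of germline genes, imprinted genes, pluripotency and DNA methylation genes, and clustered protocadherins, between 1 and 3 genes each had a member. Of 29 germline genes with an eligible promoter site 1 (3.45%) had a member, with 1 of 325 sites. It was Hormad2, a meiotic chromosome protein. The site was at 34.0% of 100 reads in KO serum, 3.70% of 81 in WT 2i + Vitamin C and 0% of 37 in KO 2i + Vitamin C. Imprinted genes had 3 of 35 (8.57%), with 4 of 927 sites. Dio3, which inactivates thyroid hormone, had 2 members, at distances 7 and 17. In that order they were at 65.7% and 38.3% of 951 reads in KO serum. They were at 50% of 572 and 30.02% of 573 in WT 2i + Vitamin C, against 0% of 161 and 1.21% of 165 in KO 2i + Vitamin C. Cobl had 43.2% in KO serum at distance 7, and Grb10 31.1% at distance 38. Of 38 genes for pluripotency, DNA methylation and TET enzymes 2 (5.26%) had members, with 3 of 920 sites. They were Cbx3 and Mbd4. Cbx3 encodes a heterochromatin protein and had 58.7% of 104 reads in KO serum, 63.8% of 116 in WT 2i + Vitamin C and 0% of 88 in KO 2i + Vitamin C at its higher site. Mbd4 encodes a DNA glycosylase and had 37.8% of 111, 46.2% of 169 and 0.844% of 237. Of 3 clustered protocadherin genes with an eligible site, 1 (33.3%) had a member, with 1 of 92 sites. It was Pcdhgc5, at 44.4% of 63 reads in KO serum and 5.66% of 106 in WT 2i + Vitamin C.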

How the data were processed

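DNA methylation was measured by RRBS-seq in 4 libraries of mouse ES cells. Per the labels, Trim Galore was used for trimming and Bismark for alignment, on build mm9. The authors deposited, per CpG dyad, counts of reads and of methylated reads and the methylated fraction. Versions were not given in the sources used here. Levels were computed here from the counts, and the fraction column was not used. Positions listed more than once in a table were left out. The rule of 20 reads in serum, 10 reads in 2i + Vitamin C, the distance of 500 bp for joining members and the 1000 bp for promoters were applied to the mm9 sequence and GENCODE vM1 annotation. Distance to CCGG was counted so that the first C of the site is base 0 on the strand read from it. Fisher's exact test was run per site with Python 3.11.15, numba 0.67.0 and scipy 1.17.1, after a test on simulated data, with Benjamini-Hochberg adjustment. Intervals are 95% Wilson intervals. Regions were named by a rule: the 12 with the most members (ties by pooled gain), the 8 members with the largest called 2i difference, at most 1 per region, and up to 4 genes per list with the most members. Not every gene that this rule names is reported here. The genome used here carries no repeat marks, so repeats were not analysed here. The members, the gene lists and the tests were chosen with earlier results of these data known, and the split by distances 7 and 19 after these data were seen.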

Additional observations from a re-analysis of the deposited data

Results flagged for a closer look

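The KO minus WT difference of the members had opposite signs in the 2 media. At the 878 members with at least 10 reads in all 4 libraries it was 34.9 percentage points in serum, which the rule fixed above 20, and -12.48 points in 2i + Vitamin C, where 641 of the 878 sites were lower in KO cells. At the 308 members 7 or 19 bases from CCGG it was 40.8 points in serum and -28.4 points in 2i + Vitamin C, with 305 lower. At the other 570 members it was 31.7 points in serum and -3.883 points in 2i + Vitamin C, with 336 lower. With 1 library per condition, the difference between the media was not tested.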

How the results depend on the processing

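No paired analysis was possible because each condition had 1 library. The number of members, 1277, depended most on the thresholds: it was 2494 at 10 reads in serum, 585 at 50 reads, 180 with KO serum at 50% or more and 635 with WT serum at 5% or less. Summing repeated positions or using only the first of the joined tables left 1277, and leaving out distances 7 and 19 (an alternative added after seeing the data) left 857. The mean in 2i + Vitamin C stayed higher in WT than in KO cells under every alternative. In WT cells it was 15.7% at 20 reads in 2i, 21.6% with reads pooled, 15.7% with each region counted once, 22.0% at 50 reads in serum and 7.62% without distances 7 and 19. In KO cells it was 2.48% with reads pooled, 2.48% with each region counted once, 1.89% at 50 reads in serum, 2.45% on autosomes only and 3.73% without distances 7 and 19. The 5 members called higher stayed at 5 in every alternative, and the 215 called lower were 213 to 278 except without distances 7 and 19, where they were 43. The promoter share was 42.6% within 500 bp and 58.5% within 2000 bp (eligible sites 73.2% and 88.0%), and 37.5% without distances 7 and 19. The 1111 regions numbered 1100 to 1146 with other joining distances and 734 without distances 7 and 19. Depth limits the 399 members with fewer than 10 reads in KO 2i + Vitamin C, the shallowest library, where no change could be tested.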
